A study of Rattus norvegicus with 18 samples.

Results

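Granins are acidic proteins of the dense-core vesicle, and neuropeptides are cut from larger precursors inside the same vesicle. The genes described here were 10 named members of this pathway, of 14217 genes that the array annotation named: the granins Chga, Chgb, Scg2, Scg3 and Vgf, the convertase chaperone Scg5, the processing enzymes Pcsk1, Pcsk2 and Cpe, and the neuropeptide precursor Npy. They were found by symbol in the platform annotation, which gave 1 probe set for each of 9 genes and listed none under Pcsk1, so Pcsk1 has no value here. The list was selected on the measured levels and group differences of these same arrays, in all 3 comparisons of groups. The members' levels and differences are therefore a description, with no p-value.

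The series held 18 Affymetrix arrays of rat spinal cord material: 6 given bone morphogenetic protein (BMP) at 10 ng/mL, 6 given ciliary neurotrophic factor (CNTF) at 10 ng/mL, and 6 controls. A time of 4 days stands with both factors and none with the controls, so a difference in time between treated and control material cannot be told apart from the factor. The entry "14 NT" on all 18 arrays was not interpreted, and strain, age, culture and the BMP family member are not given in the labels. Arrays in each group are numbered 1 to 6 in their titles. Arrays of the same number form a pair here, because their deviations from the group means went together in all 18 comparisons of such arrays (r from 0.121 to 0.491). The deposited values are linear intensities. Levels below are either these intensities or log2(intensity + 116.655), and every difference, standard error (SE) and fold is on the second scale, on which dim genes show less than their full change. An intensity of 746.4, or 9.75 on the log2 scale, was the table median.

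In neurons and endocrine cells granins help to load and form dense-core vesicles, and several are themselves cut into peptides. The convertases Pcsk1 and Pcsk2 cut precursors after pairs of basic residues, Scg5 holds Pcsk2 in check until it reaches the vesicle, and Cpe trims the basic residues that remain. In the spinal cord, Npy and other peptides made this way are released by interneurons and sensory fibres, and Cpe and Scg3 are made by astrocytes too.

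The members did not move as 1 group. With BMP, Scg2 was 9.82-fold and Npy 5.33-fold above the controls, and on neither gene did the BMP and control arrays overlap, as was so for 1.98% of named genes upward and 1.48% downward. With CNTF, Vgf was 3.81-fold above the controls and higher in 6 of 6 pairs, while Npy was at 1.10-fold. Scg5 was higher with BMP and lower with CNTF than in the control of the same number in 6 of 6 pairs each. Cpe was lower with CNTF in 6 of 6 pairs (0.752-fold). In all, 4 members were higher in every BMP pair and 0 lower, beside 10.9% and 10.1% of named genes. With CNTF 2 were higher and 3 lower in every pair, beside 8.86% and 8.47%. Chga, Chgb, Scg3 and Pcsk2 differed from the controls by at most 0.48 on the log2 scale with either factor. Among these, Chgb was lower and Scg3 higher with CNTF in 6 of 6 pairs.

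Promoters are shown for the 3 members with the largest differences. RefSeq sequences of 300 bases, from 250 before the start site to 50 after it, were at hand for 8 of the 9 measured members. Searched on both strands were TGACGTCA, the cAMP response element bound by CREB family factors, GGCGCC, a motif described in BMP target genes, TTCNNNGAA, the core of STAT sites, and TATAAA. No 2 of these overlapped in a printed promoter, apart from a pair of TATAAA matches on opposite strands in Vgf. In the sequences below, capitals mark TGACGTCA and GGCGCC.

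Scg2 promoter, GRCr8 chr9:88256817-88257116, minus strand: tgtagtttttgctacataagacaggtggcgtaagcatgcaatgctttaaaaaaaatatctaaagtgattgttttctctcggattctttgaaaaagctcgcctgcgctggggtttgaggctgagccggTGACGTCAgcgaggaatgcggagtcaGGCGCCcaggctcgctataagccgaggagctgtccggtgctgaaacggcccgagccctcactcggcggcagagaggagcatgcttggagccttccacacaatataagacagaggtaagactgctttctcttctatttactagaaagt
Vgf promoter, GRCr8 chr12:25276971-25277270, minus strand: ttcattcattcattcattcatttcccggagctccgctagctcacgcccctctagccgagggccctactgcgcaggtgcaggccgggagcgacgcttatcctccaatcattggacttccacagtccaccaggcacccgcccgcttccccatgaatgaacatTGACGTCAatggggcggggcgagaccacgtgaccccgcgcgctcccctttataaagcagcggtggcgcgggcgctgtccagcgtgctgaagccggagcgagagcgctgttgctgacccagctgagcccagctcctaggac
Npy promoter, GRCr8 chr4:80211861-80212160, plus strand: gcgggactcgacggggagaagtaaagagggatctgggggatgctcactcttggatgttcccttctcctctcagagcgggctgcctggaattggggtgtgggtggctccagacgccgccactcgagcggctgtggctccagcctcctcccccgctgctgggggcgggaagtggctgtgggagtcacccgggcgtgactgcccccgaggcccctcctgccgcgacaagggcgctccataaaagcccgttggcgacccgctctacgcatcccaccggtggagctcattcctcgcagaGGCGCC

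TGACGTCA stood in 2 of the 8 member promoters, Scg2 (bases -123 to -116 from the start site) and Vgf (-90 to -83), and in 1.83% of all 33469 rat promoters of this length. GGCGCC stood in 4 of the 8 (Scg2, Pcsk2, Cpe and Npy) and in 11% of all promoters. TTCNNNGAA was found in Scg2 alone of the 8, against 8.87% of all, and TATAAA in Vgf alone, against 14.2%. A match describes the letters in this window and says nothing of binding.

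**Figure D1:**
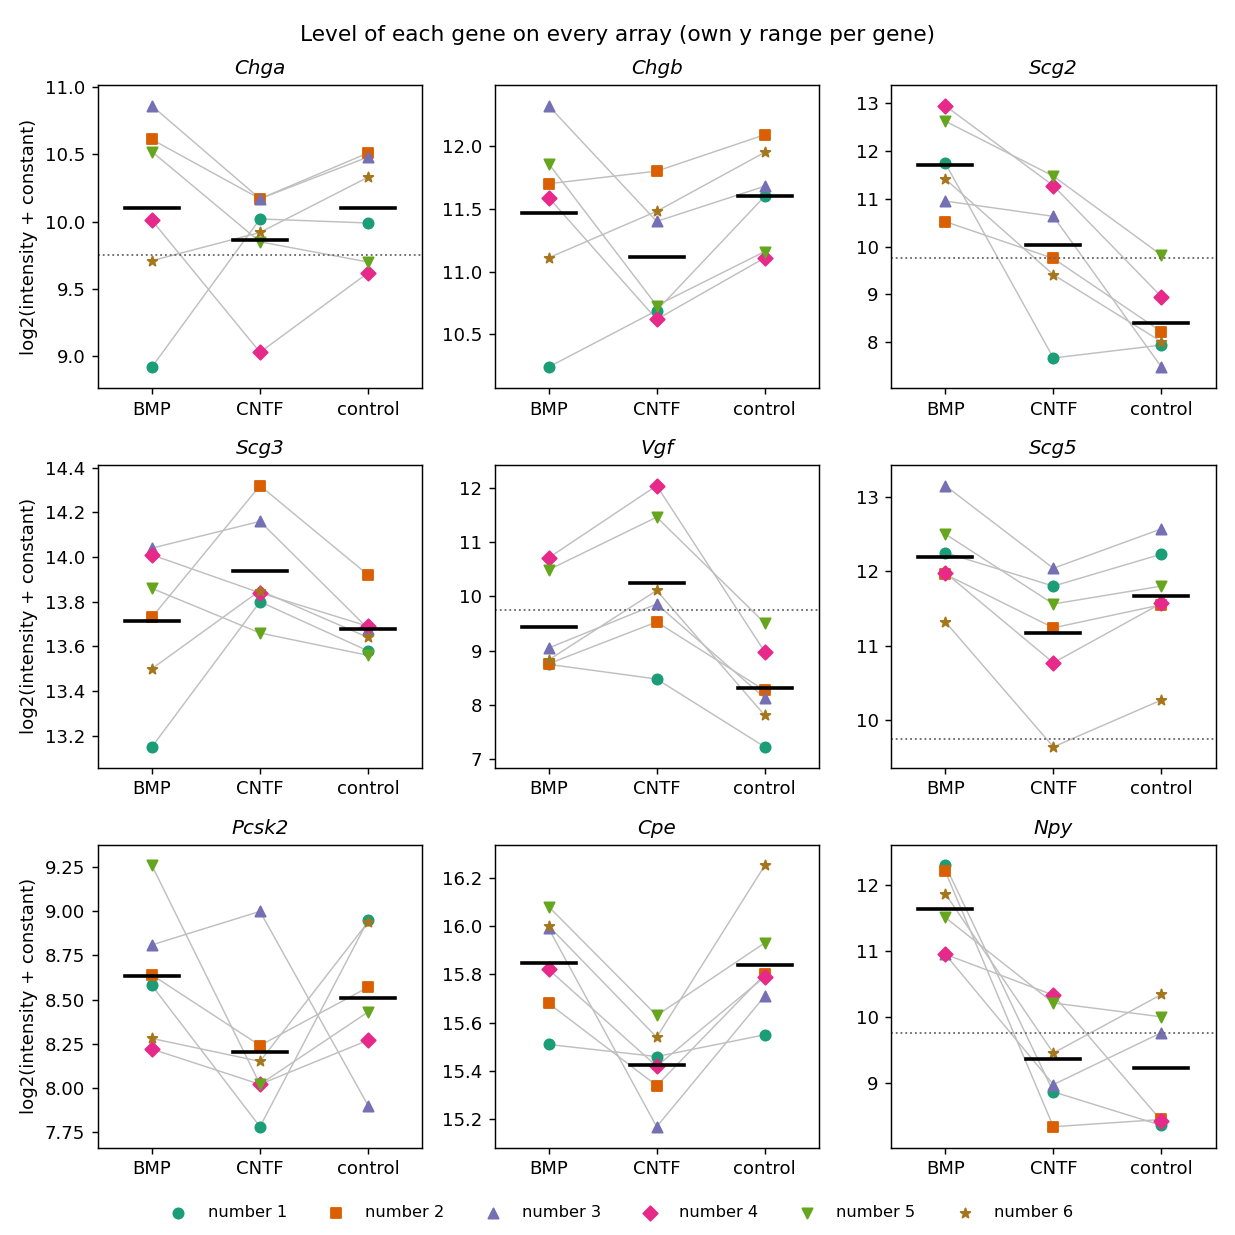
Level of each of the 9 measured genes on every array, as log2(intensity + 116.655), with groups BMP, CNTF and control on the x axis and an own y range per gene. Symbols mark the title number, grey lines join arrays of the same number, black bars are group means and the dotted line is the table median of 9.75 where it lies in the range. For Scg2 and Npy all 6 BMP arrays lie above all 6 control arrays.

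Scg2 encodes secretogranin II, the granin from which the peptide secretoneurin is cut. Its intensity was 1355 to 7715 on the BMP arrays (median 2954), 87 to 2721 on the CNTF arrays (median 1108) and 62 to 785 on the controls (median 161). All 6 BMP arrays lay above the table median, and 5 of 6 controls lay below it. On the log2 scale the level averaged 11.70 ± 0.94 with BMP, 10.03 ± 1.42 with CNTF and 8.40 ± 0.84 in controls (SD, n = 6 each). BMP exceeded control by 3.30 ± 0.56 (limma SE), and the 6 pairs, numbers 1 to 6, gave 3.80, 2.31, 3.47, 3.98, 2.81 and 3.40. CNTF exceeded control by 1.63 ± 0.56, with pair differences of -0.27, 1.54, 3.15, 2.32, 1.65 and 1.41. The CNTF and control arrays overlapped, and array 1 was the CNTF array that was not above its control. BMP was above CNTF in 6 of 6 pairs, by 0.32 to 4.07.

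Vgf encodes a neurotrophin-inducible granin that is processed into several peptides. The intensity was 313 to 1556 with BMP (median 376), 240 to 4108 with CNTF (median 903) and 34 to 611 in controls (median 177). All 6 controls lay below the table median, as did 4 of 6 BMP arrays and 2 of 6 CNTF arrays. The log2 level averaged 9.43 ± 0.91 with BMP, 10.25 ± 1.31 with CNTF and 8.32 ± 0.82 in controls (SD, n = 6 each). CNTF exceeded control by 1.93 ± 0.54, and by 1.25, 1.26, 1.74, 3.06, 1.96 and 2.31 in pairs 1 to 6. BMP exceeded control by 1.11 ± 0.54, or 2.16-fold, and by 1.52, 0.49, 0.92, 1.72, 0.98 and 1.03 in the pairs. The groups overlapped in both comparisons although every pair pointed upward, since the level also varied with the title number. BMP was below CNTF in 5 of 6 pairs (mean difference -0.82 ± 0.54), the exception being number 1.

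Npy encodes the precursor of neuropeptide Y, an inhibitory peptide of spinal interneurons. Its intensity was 1860 to 4919 with BMP (median 3210), 206 to 1169 with CNTF (median 483) and 210 to 1181 in controls (median 490). The BMP arrays lay above every CNTF and every control array. The log2 level averaged 11.63 ± 0.60 with BMP, 9.36 ± 0.79 with CNTF and 9.22 ± 0.91 in controls (SD, n = 6 each). BMP exceeded control by 2.41 ± 0.41, with pair differences of 3.95, 3.77, 1.19, 2.54, 1.51 and 1.52, and exceeded CNTF by 2.28 ± 0.41 (0.63 to 3.88 in the pairs). In pairs 1 and 2 the difference from control was larger than in the other 4. CNTF differed from control by 0.14 ± 0.41, 3 pairs being higher and 3 lower (-0.89 to 1.91).

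Scg5 encodes 7B2, the chaperone and inhibitor of Pcsk2. The intensity was 2444 to 8972 with BMP (median 4329), 682 to 4097 with CNTF (median 2600) and 1114 to 5970 in controls (median 3176). The log2 level averaged 12.19 ± 0.61 with BMP, 11.17 ± 0.87 with CNTF and 11.66 ± 0.79 in controls (SD, n = 6 each), and the group ranges overlapped broadly. Within each title number, however, the order was BMP, control, CNTF from high to low in all 6 cases. BMP minus control was 0.01, 0.41, 0.58, 0.41, 0.70 and 1.06 in pairs 1 to 6 (mean 0.53 ± 0.40). CNTF minus control was -0.43, -0.31, -0.53, -0.80, -0.23 and -0.62 (mean -0.49 ± 0.40). The SE of 0.40 is of the fit on group means, which ignores the pairing, and does not measure the spread of these pair differences. BMP minus CNTF was 1.02 ± 0.40, a ratio of 2.02, and ran from 0.44 to 1.68.

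**Figure D2:**
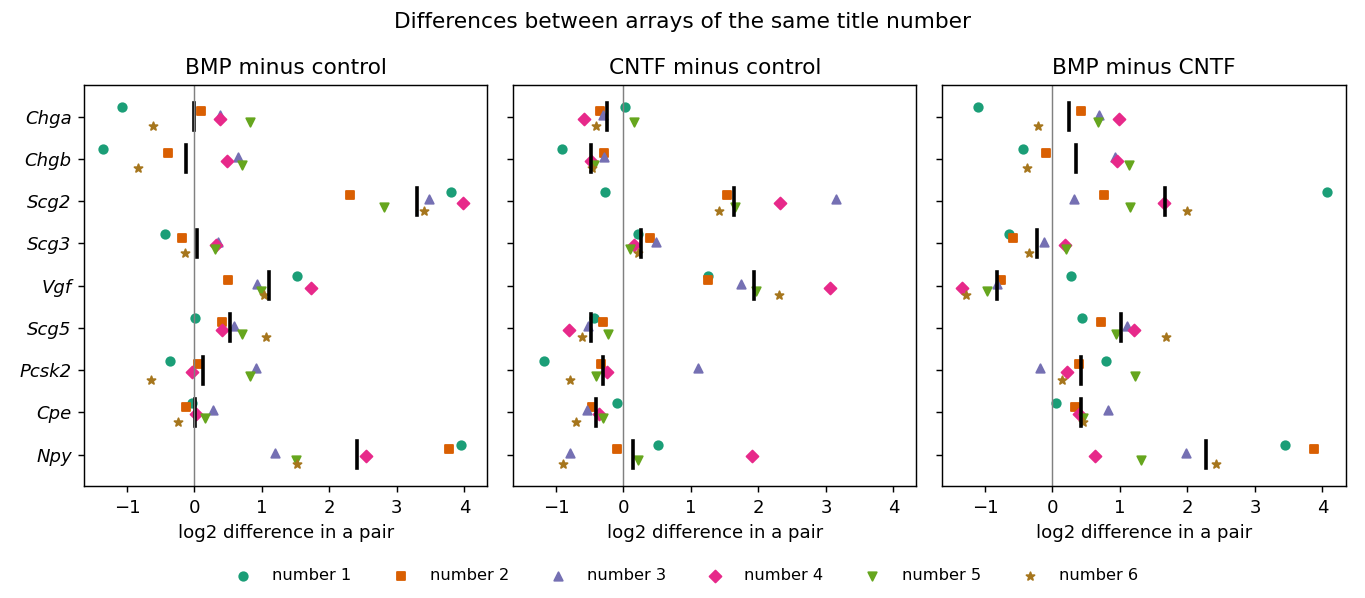
Log2 difference between arrays of the same title number, for 9 genes (rows) in 3 comparisons (panels), with 1 symbol per number and a black bar at the mean of 6 pairs. Scg2 and Npy with BMP and Vgf with CNTF lie right of 0 in all 6 pairs, and Scg5 lies right of 0 with BMP and left of 0 with CNTF.

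Cpe, the carboxypeptidase that finishes most neuropeptides, was far above the table median on all 18 arrays. Its intensity was 46575 to 69386 with BMP (median 61317), 36763 to 50702 with CNTF (median 44364) and 47959 to 77858 in controls (median 56636). Each CNTF array was below the control of its number, with CNTF minus control at -0.10, -0.46, -0.54, -0.36, -0.30 and -0.71 on the log2 scale (mean -0.41 ± 0.11). The CNTF and control ranges overlapped. BMP differed from control by 0.01 ± 0.11 and from CNTF by 0.42 ± 0.11. Pcsk2, the convertase itself, was dim: its intensity was 182 to 495 with BMP, 103 to 394 with CNTF and 121 to 377 in controls, below the table median on all 18 arrays. It differed from control by 0.12 ± 0.23 with BMP and by -0.31 ± 0.23 with CNTF, with pairs on both sides of 0.

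For the chromogranins Chga and Chgb, the major soluble proteins of endocrine granules, the groups overlapped in every comparison. Chga had an intensity of 367 to 1740 with BMP (median 1134), 406 to 1039 with CNTF (median 888) and 673 to 1343 in controls (median 1036). BMP over control was 0.999-fold, with 4 pairs higher and 2 lower, and CNTF minus control was -0.25 ± 0.28 (-0.08 without CNTF array 4, the lowest of its group). Chgb had 1096 to 4991 with BMP (median 3082), 1461 to 3450 with CNTF (median 2077) and 2087 to 4245 in controls (median 3076). It was below control with CNTF in 6 of 6 pairs, by -0.29 to -0.91 (mean -0.48 ± 0.29), and with BMP in 3 of 6 (mean -0.13 ± 0.29). For both genes BMP minus control was lowest in numbers 1 and 6, at -1.08 and -0.61 for Chga and -1.36 and -0.84 for Chgb, while numbers 3, 4 and 5 lay between 0.38 and 0.83. Scg3, a granin that binds Chga and cholesterol-rich vesicle membrane, had 8967 to 16672 with BMP (median 14123), 12848 to 20285 with CNTF (median 14604) and 11957 to 15417 in controls (median 12835). CNTF was above control in 6 of 6 pairs, but only by 0.10 to 0.48 (mean 0.26 ± 0.14), and BMP differed by 0.04 ± 0.14.

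In the limma fit over all probe sets (adjusted p under 0.05), 2 of the 9 members were called higher with BMP than control, Scg2 and Npy, and 0 lower, where 4.21% of all named genes were called higher and 3.02% lower. The same 2 had groups that did not overlap, the share of named genes being the one given above. With CNTF 0 of 9 were called in either direction, where 2.04% of named genes were called higher and 0.823% lower, and in no member did the groups separate (1.66% and 0.788% of named genes did). Without adjustment, at p under 0.05, limma had Scg2 and Vgf higher and Cpe lower with CNTF, beside 7.21% and 5.73% of named genes. Single arrays moved the CNTF count: without CNTF array 1 both Scg2 (2.11) and Vgf (2.28) were called, without control 5 Vgf (2.17), and without control 1 or BMP array 1 Cpe (-0.47 and -0.41). Cpe was also called with dim probe sets left out, and Vgf and Cpe without the 3 arrays numbered 1. BMP against CNTF called Cpe and Npy higher and 0 lower, against 3.74% and 3.76% of named genes, and the groups did not overlap for Npy (1.77% of named genes upward, 1.78% downward). The Cpe call was lost when BMP array 3, 5 or 6 or CNTF array 2, 3 or 4 was left out. Over all single arrays left out, kept calls included, the Cpe difference ran from 0.37 to 0.49. In BMP against CNTF, 4 members were higher in all 6 pairs and 0 lower, beside 10.9% and 10.2% of named genes. With the title number as a replicate block, 4 members were called with BMP (Scg2, Vgf, Scg5 and Npy, all higher) and 4 with CNTF (Scg2 and Vgf higher, Scg5 and Cpe lower). The block also called 10.7% and 9.28% of named genes higher and lower with BMP, and 5.44% and 4.06% with CNTF. In BMP against CNTF it called Scg2, Scg5, Cpe and Npy higher and Vgf lower, against 9.38% and 8.82% of named genes. Since these contrasts were known when the members were listed, nothing is read from their counts. The median difference of the 9 members was 0.12 with BMP and -0.25 with CNTF, against 0.01 and 0 over all named genes, and 0.42 against 0.01 for BMP minus CNTF.

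Several members also followed the title number. Arrays 4 and 5 were the 2 highest of their group for both Scg2 and Vgf, with BMP, with CNTF and in controls alike. For Vgf the levels of numbers 4 and 5 were 10.71 and 10.49 with BMP, 12.04 and 11.46 with CNTF and 8.98 and 9.51 in controls. The other numbers reached at most 9.05 with BMP, 10.11 with CNTF and 8.27 in controls. Some pair of numbers was the highest in all 3 groups for 9.73% of named genes, among them Scg2, Vgf, Cpe and Chga, and for 4.18% the pair was 4 and 5. For Scg5, number 3 was the highest and number 6 the lowest in every group, at 13.15 and 11.32 with BMP, 12.04 and 9.64 with CNTF and 12.57 and 10.27 in controls, and 4.09% of named genes likewise had 1 number highest and 1 number lowest in all 3 groups. The labels do not say what the numbers stand for. These orders were noticed in the data and were not tested.

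**Figure D3:**
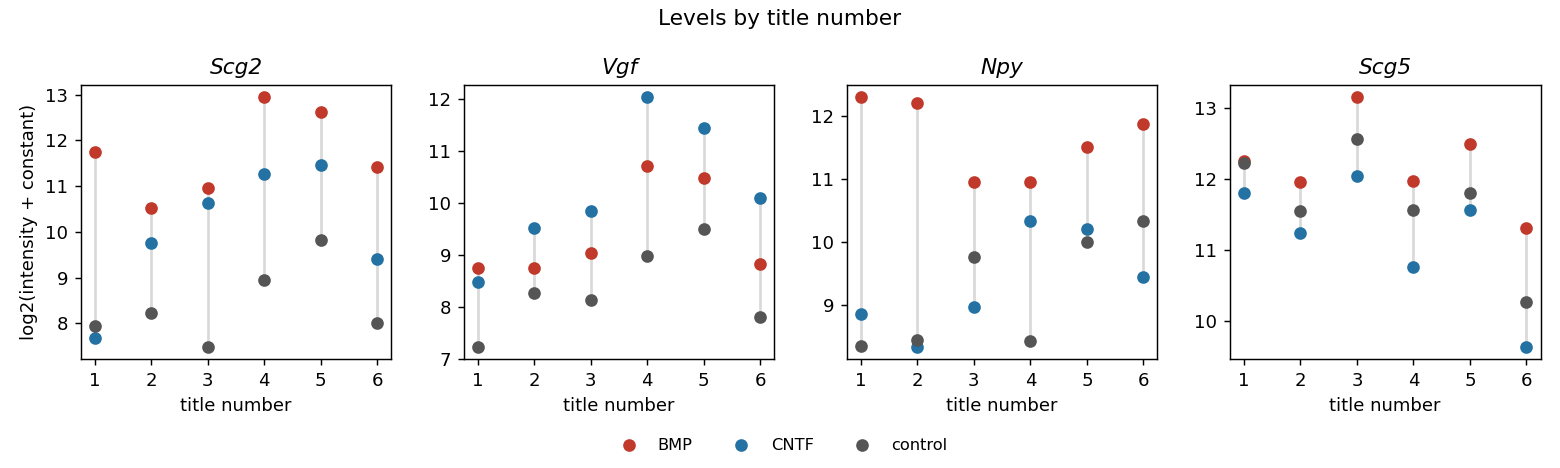
Levels of Scg2, Vgf, Npy and Scg5, as log2(intensity + 116.655), against the title number, with BMP in red, CNTF in blue and control in grey. Numbers 4 and 5 are the highest of each group for Scg2 and Vgf, and the 3 points of Scg5 keep the order BMP, control, CNTF at every number.

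The members with the largest SD over the 18 arrays were Scg2 (1.72), Npy (1.35) and Vgf (1.27). Likeness was measured as the root mean square (RMS) difference between centred log2 levels over the 18 arrays, among 8918 named genes with a mean level at or above the table median. Nearest to Scg2 were Tes (RMS 0.87), Syt4 (0.91) and Pnoc (0.98). Syt4 is a synaptotagmin of vesicles and Pnoc the precursor of the opioid-like peptide nociceptin. Both stood lowest in controls, at 12.11 ± 0.50 with BMP, 10.79 ± 0.86 with CNTF and 10.21 ± 0.49 in controls for Syt4, and at 11.92 ± 0.74, 9.70 ± 1.31 and 8.91 ± 0.50 for Pnoc in the same order of groups. Nearest to Npy were Igfbp7 (0.69), Ptgr1 (0.69) and Car14 (0.74), and nearest to Vgf Emp3 (0.61), Cav2 (0.70) and Nptxr (0.74), a receptor for neuronal pentraxins. Among the members themselves, Scg2 was nearer to Vgf (1.21) and Npy (1.26) than to Chgb (1.86). These 3 did not form a group, since Npy was nearest to Cpe (1.23) and farthest from Vgf (1.62). Vgf was nearest to Scg3 (1.18).

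Cell type markers moved beside these genes, and their part in the results was not tested. In bulk material, fewer cells of a type and less RNA per cell cannot be told apart. Of 22 neuron markers, 13 lay above the table median on all 18 arrays and 5 on none, among them Chat and Slc32a1. Their summed intensity was 115050 to 191278 with BMP, 114984 to 144833 with CNTF and 117621 to 139070 in controls. With BMP limma called 3 of them higher (Gad1, Nefl and Stmn2) and 2 lower (Eno2 and Elavl3), or 9 and 2 with the replicate block. With CNTF limma called 0 of 22, or 4 higher and 1 lower before adjustment and 3 and 1 with the block. Of 8 measured neuroendocrine markers, 6 stayed below the table median on all 18 arrays, Th, Dbh and Pnmt among them. The summed intensity of 13 oligodendrocyte markers was 26357 to 141023 with BMP, 127852 to 345265 with CNTF and 100206 to 300337 in controls, and that of 9 precursor markers 37646 to 112974, 92574 to 141519 and 111491 to 158289 in the same order. With BMP limma called 7 of the 13 and 8 of the 9 lower and 0 higher. With CNTF it called 0 of the 13, and 1 of the 9 lower and 0 higher. The summed intensity of 12 astrocyte markers was 201331 to 316883, 247670 to 375343 and 188927 to 279580 in the same order. That of 10 fibroblast and smooth muscle markers was 15202 to 99494, 3783 to 26716 and 4708 to 15135. Of the astrocyte markers limma called 1 higher and 0 lower with BMP, and 2 higher and 1 lower with CNTF. Of the fibroblast and smooth muscle markers it called 2 higher and 0 lower with BMP (6 and 0 with the block), and 0 with CNTF. The sums of 7 Schwann cell markers overlapped among the groups (15394 to 21609, 18760 to 35501 and 14495 to 22578). Of 10 microglia markers 9, and all 7 endothelial markers, stayed below the table median on all arrays. Each of the neuroendocrine, Schwann cell and microglia lists had 1 marker called higher with CNTF, and the endothelial list 1 with BMP. As background, limma called 4.21% of named genes higher and 3.02% lower with BMP, and 2.04% and 0.823% with CNTF. The shares before adjustment with CNTF and with the block are given above.

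Other genes of peptide secretion were taken from 6 lists, a gene being represented by its brightest probe set. The share of named genes called, given above, is the background for these counts. Like the members, the lists were chosen with earlier results of these data known. Most genes named from them were picked for a small adjusted p. Their p-values therefore describe these arrays and are not an independent test.

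Among 41 other neuropeptide precursors, 4 rose and 0 fell with BMP (6 and 1 with the replicate block), and the median difference was 0.03. Pnoc rose 8.06-fold (+3.01 ± 0.47, limma adjusted p = 0.00109), Crh, the precursor of corticotropin-releasing hormone, 4.69-fold (+2.23 ± 0.35, adjusted p = 0.000997), and Tac1, which encodes substance P, 4.36-fold (+2.12 ± 0.35, adjusted p = 0.00127). Penk, the precursor of the enkephalins, rose with both factors, by 1.78 ± 0.40 with BMP (adjusted p = 0.0111) and by 1.73 ± 0.40 with CNTF (adjusted p = 0.0237). Sst, the precursor of somatostatin, rose 4.29-fold with CNTF (+2.10 ± 0.31, adjusted p = 0.000612). These 5 genes were higher in 6 of 6 pairs in the comparisons named. With CNTF 2 of the 41 rose and 0 fell (3 and 0 with the block). Directly compared, Crh and Pnoc were higher with BMP than with CNTF by 2.51 ± 0.35 and 2.22 ± 0.47 (adjusted p = 0.000193 and 0.00676), Tac1 by 1.31 ± 0.35 (adjusted p = 0.0281), and Sst was lower, with a difference of -1.21 ± 0.31 (adjusted p = 0.0255). For Pdyn a dimmer probe set was called higher there (1.12, adjusted p = 0.0418), while the brightest was not called (1.46, adjusted p = 0.149).

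Of 30 neuropeptide receptors, 4 rose and 1 fell with BMP (5 and 1 with the block). Npy1r, a receptor for neuropeptide Y, rose 3.26-fold to 9.32 ± 0.39 with BMP, against 7.62 ± 0.38 in controls (adjusted p = 0.00112). It was higher than with CNTF by 1.48 ± 0.27 (adjusted p = 0.00225). Npy1r was dim, with an intensity of 5 to 143 in controls and 329 to 775 with BMP. The other measured receptors for neuropeptide Y, Npy2r, Npy4r and Npy5r, were not called. The kappa opioid receptor Oprk1 rose 3.89-fold (+1.96 ± 0.26, adjusted p = 0.000489), with 2 further probe sets at 1.26 and 1.08, both called. Tacr1, the substance P receptor, rose by 1.30 ± 0.26 with BMP (adjusted p = 0.0045) and by 1.10 ± 0.26 with CNTF (adjusted p = 0.0235). A second Tacr1 probe set gave 0.20 and -0.10 and was not called. Gpr37 rose by 2.27 ± 0.51 with BMP (adjusted p = 0.0104), and the nociceptin receptor Oprl1 fell (-1.16 ± 0.30, adjusted p = 0.0272). With CNTF the galanin receptor Galr2 rose as well (+1.19 ± 0.23, adjusted p = 0.00653), so that 2 of 30 rose and 0 fell (3 and 1 with the block). Galr2 was dim, with an intensity of 43 to 197 in controls and 236 to 888 with CNTF. A dimmer Galr2 probe set gave 0.58 and was not called. Oprk1 was higher with BMP than with CNTF by 2.40 ± 0.26 (adjusted p = 1.8e-05).

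Of 28 genes of the dense-core vesicle and exocytosis machinery, 3 rose and 1 fell with BMP (8 and 3 with the block), and 0 were called with CNTF by limma (before adjustment 2 higher and 2 lower, with the block 2 and 1). These counts rest on the brightest probe set of a gene: for the vesicle protein Sv2b, at 0.21 with BMP and 0.41 with CNTF and not called, 1 of the 2 dimmer probe sets was called with BMP (1.13, adjusted p = 0.0272; 1.04 with CNTF, adjusted p = 0.0805), and the other, in the opposite direction, with CNTF (-0.75, adjusted p = 0.0455). Syt4 rose 3.74-fold (+1.90 ± 0.33, adjusted p = 0.00202) and a second Syt4 probe set gave 1.83, also called. The small GTPase Rab3d rose by 1.27 ± 0.23 (adjusted p = 0.00211) and Cadps2, a priming factor of dense-core vesicles, by 1.01 ± 0.30 (adjusted p = 0.0494), while Syt11 fell (-0.62 ± 0.18, adjusted p = 0.0437). Against CNTF, 5 were higher with BMP and 0 lower (8 and 0 with the block): Syt5 (+0.90 ± 0.20, adjusted p = 0.00862), the SNARE protein Snap25 (+1.01 ± 0.25, adjusted p = 0.0193), Syt4, the calcium sensor Syt1 and Rab3d. For Syt4, Syt1 and Rab3d the differences were 1.32, 1.05 and 0.80, with adjusted p of 0.0208, 0.0245 and 0.0384. The second Syt4 probe set gave 1.17 in this comparison and was not called (adjusted p = 0.0542). This list shares Snap25 and Syt1 with the neuron markers and 3 genes with the neuroendocrine markers.

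Of 14 other processing enzymes, 1 rose and 0 fell with BMP (1 and 2 with the block). The convertase Pcsk5 rose by 0.94 ± 0.22 (adjusted p = 0.0132). Its 2 other probe sets gave 0.03 and 0.83 and were not called. With CNTF limma called 0 of 14 (before adjustment 2 higher and 2 lower, with the block 0 and 2). The glutaminyl cyclase Qpct was called with the block only, at -0.65 ± 0.20 with BMP and -0.71 ± 0.20 with CNTF (adjusted p = 0.00183 and 0.00189 with the block, 0.0609 and 0.0737 without it), and was lower in 6 of 6 pairs of each. The carboxypeptidase Cpm was at -1.08 ± 0.39 with BMP (adjusted p = 0.0258 with the block and 0.12 without it). The SEs of Qpct and Cpm are from the fit without the block. Both genes were picked for mention after their values were seen. Between the factors Pcsk5 was higher with BMP (+0.97 ± 0.22, adjusted p = 0.0098, other probe sets 0.14 and 0.98, 1 of them called) and the aminopeptidase Rnpep lower (-0.34 ± 0.08, adjusted p = 0.0179).

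Of 14 measured transcription factors tied to neuroendocrine genes, 1 rose and 3 fell with BMP (3 and 4 with the block). Nkx2-2, a patterning factor that is also found in the oligodendrocyte lineage, fell (-1.88 ± 0.37, adjusted p = 0.00489), as did Myt1 (-1.12 ± 0.22, adjusted p = 0.00394) and the corepressor Rcor2 (-0.69 ± 0.20, adjusted p = 0.0433). Crem, a cAMP-responsive factor, rose by 0.52 ± 0.14 (adjusted p = 0.0315), and its 5 other probe sets gave 0.10 to 0.58, none called. With CNTF, Phox2a was the 1 that rose (+0.87 ± 0.22, adjusted p = 0.0433) and 0 fell (1 and 2 with the block). Phox2a was dim, below the table median on all 18 arrays. Nkx2-2, Rcor2 and Myt1 were also lower with BMP than with CNTF (-1.90, -0.82 and -0.80, adjusted p = 0.00374, 0.0154 and 0.0328).

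Of 19 activity and cAMP response genes, 2 rose and 2 fell with BMP (6 and 3 with the block), and 2 rose and 1 fell with CNTF (3 and 2 with the block). Nr4a1, an immediate early nuclear receptor, fell with BMP (-1.33 ± 0.28, adjusted p = 0.0076), as did the phosphodiesterase Pde4b (-0.62 ± 0.15, adjusted p = 0.0167), while Fos rose with Crem (+1.08 ± 0.31, adjusted p = 0.0434). With CNTF Fos and Junb, subunits of the AP-1 factor, rose by 3.20 ± 0.31 and 2.15 ± 0.21 (adjusted p = 3.9e-06 and 3.93e-06) and Pde4d fell (-0.60 ± 0.15, adjusted p = 0.0414). A second Fos probe set gave -0.17 with BMP and -0.31 with CNTF. Against CNTF, Junb and Fos were lower with BMP (-1.78 and -2.11, adjusted p = 3.54e-05 and 0.000352), and Pde4d and the clock gene Per1 were higher (+0.92 and +0.68, adjusted p = 0.00108 and 0.0375). The second Fos probe set gave 0.14 there. Other Pde4d probe sets gave 0.12 and 0.28 there, and -0.37 and -0.18 with CNTF minus control, none called. Homer1 was not called on its brightest probe set. Of its dimmer ones, 1 was called lower with BMP than control (-0.76, adjusted p = 0.0104). This one and another were called lower with BMP than with CNTF (-0.60 and -0.67, adjusted p = 0.0396 and 0.0397).

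**Figure D4:**
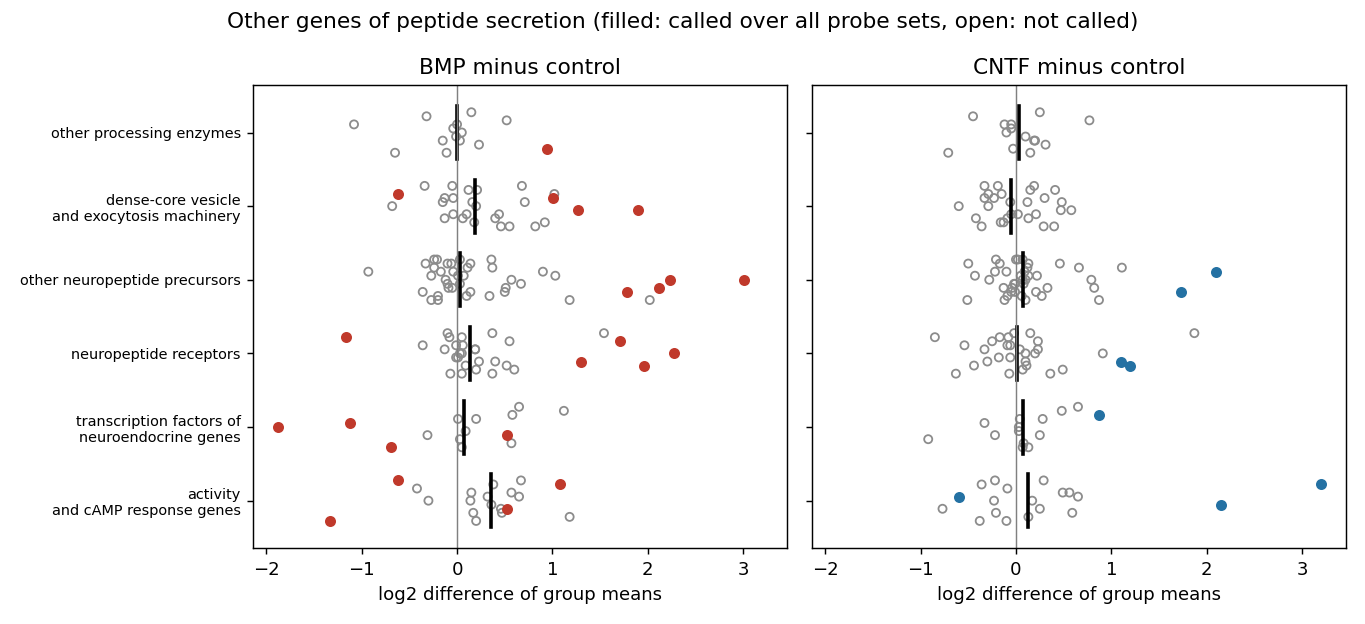
Log2 difference of group means for each measured gene of the 6 other lists (rows), BMP minus control on the left and CNTF minus control on the right. Filled points were called over all probe sets, open points were not, and black bars are list medians. Pnoc, at 3.01, is the farthest right with BMP and Fos, at 3.20, with CNTF.

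Some of these calls depended on single arrays. Leaving out 1 of the 18 arrays ended the BMP calls of Cadps2 in 15 cases (adjusted p up to 0.121 without BMP array 2), of Fos, Syt11 and Rcor2 in 11 each (up to 0.112 and 0.113 without BMP array 2 and 0.0943 without BMP array 3), of Crem in 7 and of Oprl1 in 5 (up to 0.0795 and 0.0647 without control 2). It ended the CNTF calls of Phox2a in 15 cases, Pde4d in 12, Tacr1 in 6 and Penk in 4 (up to 0.112 and 0.108 without CNTF array 3, 0.064 and 0.0686 without CNTF array 5). Between the factors it ended those of Per1 in 9, Rab3d and Tac1 in 8 each, Myt1 in 7, Syt1 and Sst in 4 each, Syt4 in 3 and Snap25 in 2, with adjusted p up to 0.0931. The other calls named from the 6 lists, on the brightest probe set, held when any 1 array was left out. Every such call made without the replicate block also held with it. Calls of dimmer probe sets and of cell type markers were not among those checked.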

How the data were processed

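Per the platform annotation the values are of Affymetrix probe sets. The authors deposited linear intensity values, 31099 per array. How probes were summarised and scaled is not given in the sources used here. With 2% of values trimmed at each end, array means lay between 2500.7 and 2500.8, and the 75th percentiles ranged over 0.0696 log2, below the 0.3 at which quantile normalization would have been applied, and the deposited scale was kept. Array medians were 666.5 to 817.2.

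From these, log2(intensity + 116.655) was computed, the constant being the table's 20th percentile. Without 57 Affymetrix controls, 31042 probe sets were tested: 20826 with 1 symbol, 436 with several and 9780 with none. limma 3.58.1 in R 4.3.3 (lmFit on 3 group means, eBayes with trend) was fitted to all 18 arrays, with two-sided tests adjusted by Benjamini-Hochberg across the tested probe sets. The ± values after differences are limma's SE from this fit, which ignores the title number, also beside pair differences and block p-values. In a simulation of BMP against control over 31042 probe sets, 82 of 100 changes of 1 log2 and 99 of 100 of 2 log2 were called. The changed probe sets were drawn from those with a mean level above the table median and a within-group SD under 1 log2. Noise was normal and independent between arrays, with no effect of the title number. The rate was therefore not measured for dim or more variable genes, such as Pcsk2 and Vgf.

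The title numbers pair the arrays: r exceeded 0.1 in all 18 same-numbered comparisons (median 0.326), and in 10 of 90 others (median -0.092). Whether a group's arrays stem from different cultures or animals is not labelled, and the p-values cover only array-to-array spread, which may be technical. Members and lists were chosen with earlier results of these data known. Besides all members, named genes are up to 5 called genes with the smallest adjusted p per list and comparison, and the 3 genes nearest to each of the 3 most variable members. Alternatives were the replicate block, quantile normalization, other constants, a filter on dim probe sets, no trend, and single arrays or title numbers left out.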

Additional observations from a re-analysis of the deposited data

Results flagged for a closer look

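In 2 of 27 groups of 6 arrays, 1 array lay far from the others, where chance gives about 1 in 20. CNTF array 4 had a Chga level of 9.03, the next lowest CNTF array being at 9.85 and the highest at 10.17. Control 2 had a Scg3 level of 13.92, the next highest control being at 13.69 and the lowest at 13.56. Without CNTF array 4, Chga with CNTF minus control was -0.08, against -0.25 with all arrays.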

How the results depend on the processing

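Of 780 member values under an alternative, 777 moved by less than the SD between arrays. The exceptions were with a constant at the table median, 746.4, where Scg2 and Npy exceeded control with BMP by 2.01 and 1.59 and Npy exceeded CNTF by 1.54. No called member changed sign. The call of Cpe between BMP and CNTF was lost in 10 of 29 alternatives, all of them with arrays left out. Every member has 1 probe set, so the mean over probe sets of a gene could not differ and was not run. Over all probe sets, 1865 were called with BMP, 721 with CNTF and 1934 between the factors. With the replicate block the counts were 5176, 2349 and 4686. Leaving out single arrays gave 1282 to 2097, 483 to 795 and 1379 to 1985, and leaving out a title number 740 to 1789, 366 to 645 and 1111 to 1628. Among these, leaving out number 2 gave 740, 389 and 1111, number 3 gave 1008, 420 and 1214, number 5 gave 366 with CNTF and 1190 between the factors, and number 6 gave 406 with CNTF. Other settings kept the counts within a factor of 1.5. Of 1460 values of single listed genes, 246 lost the call and 0 reversed. Pcsk2 was dim and has no value once dim probe sets are left out.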
